A study of Mus musculus with 18 samples.

Results

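The genes described here are 10 genes of cell adhesion and of the epithelial to mesenchymal transition, taken by name, of the 35773 genes counted in the RNA-seq of mouse pluripotent stem cells. They are the cadherins *Cdh1* and *Cdh2*, the epithelial adhesion gene *Epcam*, the transcriptional repressors *Snai1*, *Snai2*, *Zeb1*, *Zeb2* and *Twist1*, and the mesenchymal products *Vim* and *Fn1*. The 18 samples are 6 groups of 3 replicates: naive ESCs kept in 2i/LIF, a medium with inhibitors of MEK and GSK3 and with LIF, EpiLCs (epiblast-like cells), EpiSCs (epiblast stem cells), AFSCs (primed stem cells kept in Activin A and FGF2), ASCs derived from AFSCs, and ESC-ASCs, which are ESCs moved from 2i/LIF into the ASC medium. That medium, ABCL, contains Activin A, BMP4, the GSK3 inhibitor CHIR99021 and LIF. The labels give all samples as wild type on the 129S2/SvPasCrl strain, while the study's methods describe AFSC lines from crosses with reporter males of mixed background, and ASCs were grown out as reporter-positive colonies from AFSCs. AFSCs were derived without feeder cells on plates coated with fibronectin, the protein product of *Fn1*, and ASCs on the same coating. The deposited ESC-ASC columns carry a name, mSQ, that the labels do not explain, and the study moved more than 1 ESC line into ABCL, so whether ESCs and ESC-ASCs are of the same line is not settled. Nothing in the labels says that replicates came from separate lines or cultures, so a p-value measures the spread between these samples only.

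Cadherins are the transmembrane proteins of adherens junctions, which bind their own kind on neighbouring cells and are tied to the actin cytoskeleton through catenins. When epithelial cells lose these junctions and become migratory, as in gastrulation, E-cadherin typically gives way to N-cadherin, and repressors of the Snail, Zeb and Twist families silence epithelial genes while vimentin and fibronectin accumulate. Mouse pluripotent cells hold on to each other through E-cadherin, and the epiblast passes through this transition at the primitive streak.

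Total counts ranged from 4961934 to 9906473 in the samples of 5 groups and from 17813619 to 18071600 in ESC-ASCs, so that group and depth coincide there. Levels are read counts scaled by DESeq2 size factors and given per kb of exon, written here as normalized read counts per kb, and tests are edgeR's quasi-likelihood F test, with p adjusted by Benjamini-Hochberg over 16901 genes and a call at an adjusted p below 0.05. The labels held in the naive and primed markers: the summed level of 6 naive genes was 3822 to 4881 in ESCs, 3810.1 to 4535 in ASCs and 2811 to 3031 in ESC-ASCs, and at most 121 in any other sample. In ESCs, ASCs, EpiLCs and AFSCs the library of replicate 1 stood apart from the other replicates of its group. The chi-square per degree of freedom of its counts against theirs was 21.5 to 100.1, and it was 1.65 to 11.8 between replicates 2 and 3 of these groups. The number of tested genes called is given with and without these libraries in each comparison described in detail where it changes.

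Of the 10 genes, 9 passed the filter on low counts (10 or more in 3 or more samples). *Snai2* was not tested, as it had 92 counts over all 18 samples and at most 14 in a sample. *Cdh1*, *Epcam* and *Vim* were above 100 normalized read counts per kb in every sample and *Fn1* in those of ESCs, ASCs and ESC-ASCs, while *Cdh2* and the repressors other than *Snai1* and *Twist1* were at most 51.5. As these are bulk samples, a lower level from fewer cells with a transcript and from less RNA per cell cannot be told apart.

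**Figure D1:**
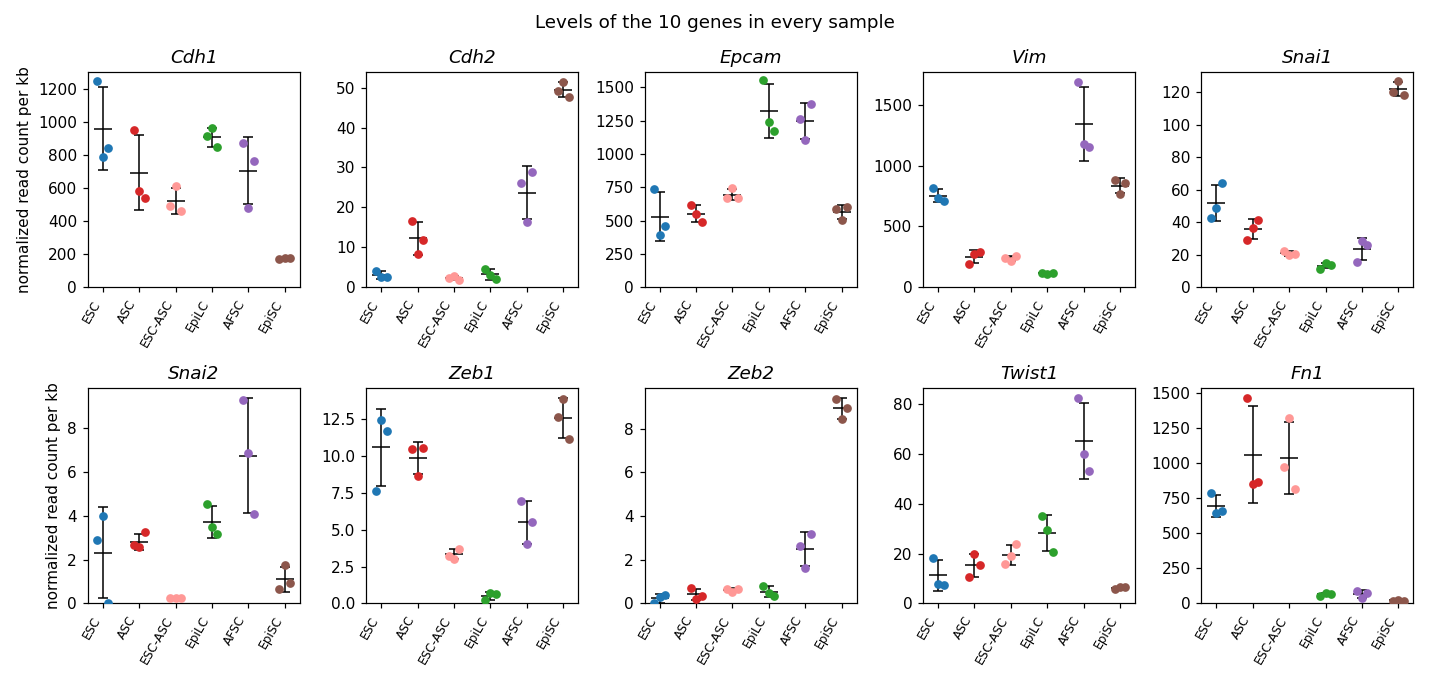
Normalized read count per kb (linear axes from 0, one scale per gene) of the 10 genes in the 18 samples, with points for samples and bars for the mean ± SD of 3. EpiSCs hold the lowest *Cdh1*, at 170.5 to 178, and the highest *Cdh2*, at 47.8 to 51.5.

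Proteins of the Snail and Zeb families are known to bind the E-box CAGGTG, which reads CACCTG on the other strand, through zinc fingers. The 250 bases before the start site were searched for these letters on both strands in the RefSeq windows of GRCm38.p6, which held 5 of the 10 genes (*Vim*, *Snai1*, *Zeb2*, *Twist1* and *Epcam*). The letters occurred in 17.2% of all 32851 windows, and at least 2 times in 2.06%. The windows of *Epcam*, the epithelial gene of the list, and of *Snai1*, a repressor that is known to bind the motif, are shown because they held it. The capitals mark the E-box. It starts 187 and 19 bases before the start site in *Epcam* (chr17:87635729-87635978, plus strand) and 126 bases before it in *Snai1* (chr2:167537945-167538194, plus strand). The windows of *Vim*, *Zeb2* and *Twist1* did not hold the letters.
*Epcam*: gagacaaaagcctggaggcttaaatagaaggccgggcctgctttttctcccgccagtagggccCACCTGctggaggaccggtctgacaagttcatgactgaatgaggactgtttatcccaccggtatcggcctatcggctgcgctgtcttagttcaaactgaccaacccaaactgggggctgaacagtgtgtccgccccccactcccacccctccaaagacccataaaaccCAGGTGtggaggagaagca
*Snai1*: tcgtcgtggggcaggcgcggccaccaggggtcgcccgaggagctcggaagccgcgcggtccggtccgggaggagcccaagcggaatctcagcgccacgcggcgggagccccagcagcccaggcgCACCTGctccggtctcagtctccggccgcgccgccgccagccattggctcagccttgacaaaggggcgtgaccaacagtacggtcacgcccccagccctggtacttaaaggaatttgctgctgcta

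*Cdh1* (ENSMUSG00000000303, chromosome 8, 106603351 to 106670246, plus strand) encodes E-cadherin, the main adhesion protein of naive pluripotent cells. Its normalized read counts per kb were 1252, 789 and 845 in replicates 1 to 3 of ESCs, 915, 964 and 849 in EpiLCs, and 874, 483 and 762 in AFSCs. They were 955, 584 and 543 in ASCs and 495, 614 and 463 in ESC-ASCs, against 170.5, 178 and 174 in EpiSCs. Every EpiSC sample lay below every other sample, and the other 5 groups overlapped with at least 1 of their neighbours. In the order of means, ESCs, EpiLCs, AFSCs, ASCs, ESC-ASCs, EpiSCs, only the last step passed the test, with EpiSCs 3.02-fold below ESC-ASCs (log2 fold change -1.59, standard error 0.23, adjusted p = 5.59e-06). Among the ends of the first 5, ESC-ASCs were lower than ESCs (log2 fold change -0.88, standard error 0.23, adjusted p = 0.003). The difference between ASCs and ESCs did not pass (log2 fold change -0.49, standard error 0.23, adjusted p = 0.081), with an approximate 95% interval of -0.93 to -0.04, and replicate 1 was the highest in both groups. Without ASC replicate 1 the same difference passed, at an adjusted p of 0.007.

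*Cdh2* (ENSMUSG00000024304, chromosome 18, 16588877 to 16809246, minus strand) encodes N-cadherin, which marks mesoderm and neural cells. It was at 49.2, 51.5 and 47.8 in EpiSCs, 26.1, 16.2 and 28.8 in AFSCs and 16.6, 8.24 and 11.8 in ASCs. In the other groups it was low, at 4.15, 2.45 and 2.63 in ESCs, 2.31, 2.72 and 1.93 in ESC-ASCs and 4.58, 3.07 and 1.99 in EpiLCs, where the raw counts were 15 to 45. EpiSCs did not overlap with AFSCs, and ASCs did not overlap with ESCs, ESC-ASCs or EpiLCs, whereas the highest ASC sample reached past the lowest AFSC sample. EpiSCs were 2.07-fold above AFSCs (log2 fold change of AFSCs against EpiSCs -1.05, adjusted p = 0.002). ASCs were below AFSCs (log2 fold change -0.98, adjusted p = 0.003) and 4.05-fold above ESCs (log2 fold change 2.02, standard error 0.32, adjusted p = 4.43e-05). No step among EpiLCs, ESCs and ESC-ASCs passed the test.

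Set against each other per kb, the cadherins spanned a wide range. The ratio of *Cdh1* to *Cdh2* was 3.46, 3.45 and 3.65 in EpiSCs, 33.5, 29.8 and 26.5 in AFSCs and 57.6, 70.9 and 45.9 in ASCs. It was 214, 226 and 240.5 in ESC-ASCs, 301, 322 and 321 in ESCs and 199.5, 314 and 426 in EpiLCs. EpiSCs, AFSCs, ASCs and ESC-ASCs did not overlap with each other, while EpiLCs overlapped with both ESC-ASCs and ESCs. E-cadherin transcripts remained in excess in all 18 samples. Of the cultures in ABCL, ASCs had a ratio closer to that of AFSCs than to that of ESCs, and ESC-ASCs one closer to that of ESCs. The ESC-ASCs may be of another line than these ESCs. The ratios of ESC-ASCs, ESCs and EpiLCs rest on 15 to 45 raw counts of *Cdh2*, and what set the ratios was not tested. The ratio of *Epcam* to *Vim* had another order, with 13.4, 11.7 and 10.1 in EpiLCs, 2.82, 3.47 and 2.62 in ESC-ASCs and 3.27, 2.03 and 1.68 in ASCs. It was 0.746, 0.936 and 1.20 in AFSCs, 0.908, 0.539 and 0.648 in ESCs and 0.661, 0.664 and 0.703 in EpiSCs, so only EpiLCs stood clear of every other group.

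**Figure D2:**
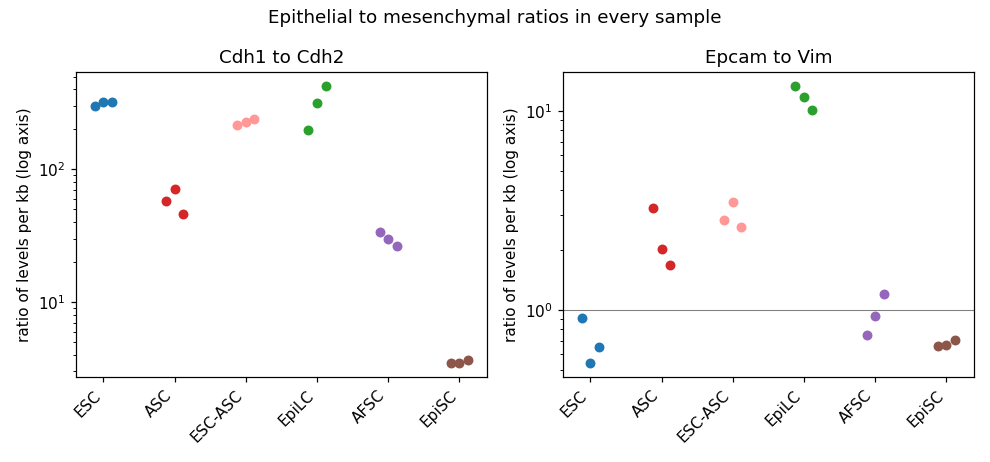
Ratio of levels per kb (log axes) of *Cdh1* to *Cdh2* and of *Epcam* to *Vim*, with a point for each of the 18 samples; the grey line marks equal levels. The cadherin ratio is lowest in EpiSCs, at 3.45 to 3.65, and the *Epcam* to *Vim* ratio is highest in EpiLCs, at 10.1 to 13.4.

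*Epcam* (ENSMUSG00000045394, chromosome 17, 87635979 to 87651106, plus strand), whose 2 E-boxes are shown above, encodes a homophilic adhesion protein of epithelia that is abundant in pluripotent cells. Its levels were 1556, 1243 and 1175 in EpiLCs and 1262, 1105 and 1375 in AFSCs. They were 672, 742 and 673 in ESC-ASCs, 614, 551 and 487 in ASCs, 737, 395 and 459.6 in ESCs and 584, 507 and 601 in EpiSCs. All EpiLC and AFSC samples exceeded all others, and ESC replicate 1 was far above the other ESC samples. AFSCs were 1.81-fold above ESC-ASCs, the next group down (log2 fold change 0.85, standard error 0.18, adjusted p = 3.06e-04), and neither EpiLCs against AFSCs nor any step among the lower 4 groups passed the test. No difference in *Epcam* passed between EpiSCs and ESCs (log2 fold change 0.09, adjusted p = 0.70, approximate 95% interval -0.26 to 0.44), although the *Cdh1* of EpiSCs was 5.55-fold below that of ESCs (log2 fold change -2.47, standard error 0.24, adjusted p = 3.03e-08).

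*Snai1* (ENSMUSG00000042821, chromosome 2, 167538195 to 167542814, plus strand) encodes Snail, a repressor of *Cdh1* that is active at the primitive streak. It stood at 120.1, 127 and 119 in EpiSCs and 42.6, 48.8 and 64.04 in ESCs. Lower levels were found in ASCs (29.3, 36.5 and 41.3), AFSCs (15.8, 28.6 and 26.2), ESC-ASCs (22.4, 19.5 and 20.7) and EpiLCs (11.4, 14.7 and 13.9). EpiSCs were clear of all other samples, and ESCs were above every ASC sample, while AFSCs spread over the range of ESC-ASCs. EpiSCs were 2.30-fold above ESCs (log2 fold change 1.20, standard error 0.20, adjusted p = 2.65e-05). ASCs were between ESCs and AFSCs, but both steps passed narrowly (log2 fold change -0.58, adjusted p = 0.028 and log2 fold change 0.56, adjusted p = 0.034). The step from ESCs was lost without ASC replicate 1 or 2, ESC replicate 3 or ESC-ASC replicate 2 (adjusted p up to 0.18), and the step from AFSCs without ASC replicate 2 or 3 or AFSC replicate 1 (adjusted p up to 0.16).

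*Snai2* (ENSMUSG00000022676, chromosome 16, 14705852 to 14709395, plus strand), which encodes the related repressor Slug, was near zero in all groups. Its raw counts were 14, 12 and 8 in AFSCs, 8, 8 and 6 in EpiLCs, 5, 5 and 6 in ASCs and 3, 7 and 0 in ESCs. They were 1, 4 and 2 in EpiSCs and 1, 1 and 1 in ESC-ASCs, the deepest libraries. At most 14 fragments stood behind any value. The AFSC counts were all above those of EpiSCs and of ESC-ASCs. In the fit without the filter on low counts, *Snai2* was called in 6 of 16 contrasts, among them as higher in AFSCs than in EpiSCs (log2 fold change 2.48, adjusted p = 0.002) and in ESCs (log2 fold change 1.59, adjusted p = 0.025) and as lower in ESC-ASCs than in ESCs (log2 fold change -2.86, adjusted p = 0.006).

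*Zeb1* (ENSMUSG00000024238, chromosome 18, 5591860 to 5775467, plus strand) encodes a zinc-finger repressor of epithelial genes. Its levels were 12.6, 13.9 and 11.2 in EpiSCs, 7.60, 12.4 and 11.7 in ESCs and 10.5, 8.63 and 10.5 in ASCs. AFSCs had 6.94, 4.01 and 5.53, ESC-ASCs 3.24, 3.04 and 3.72, and EpiLCs 0.229, 0.7 and 0.635, which rest on 2, 8 and 6 raw counts. EpiLCs lay below all other samples, and no step among EpiSCs, ESCs and ASCs passed. ASCs were above AFSCs (log2 fold change 0.83, standard error 0.23, adjusted p = 0.005) and AFSCs above ESC-ASCs (log2 fold change 0.73, adjusted p = 0.011). ESC-ASCs were 6.02-fold above EpiLCs (log2 fold change of EpiLCs against ESC-ASCs -2.59, adjusted p = 2.08e-06). 

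*Zeb2* (ENSMUSG00000026872, chromosome 2, 44983632 to 45117395, minus strand) encodes the sister repressor, which acts in gastrulation and the neural crest. It reached 9.36, 8.44 and 8.96 in EpiSCs and 2.64, 1.63 and 3.17 in AFSCs, and stayed below 1 in all 12 other samples. Those samples had 0 to 27 raw counts, with 0, 5 and 7 in ESCs. EpiSCs, AFSCs and the rest did not overlap. AFSCs were 3.54-fold below EpiSCs (log2 fold change -1.83, standard error 0.30, adjusted p = 7.60e-05) and 4.04-fold above ESC-ASCs (log2 fold change 2.02, standard error 0.34, adjusted p = 3.93e-05). The antisense gene *Zeb2os* shares 467 exonic bases with *Zeb2*, and as fragments were counted without regard to strand a part of them could belong to either, but its counts were 5.84% of those of *Zeb2*. *Zeb1* was thus the more abundant of the pair per kb in every group except EpiLCs, where both were near their limit.

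*Twist1* (ENSMUSG00000035799, chromosome 12, 33957671 to 33959817, plus strand) encodes a basic helix-loop-helix factor of mesoderm and neural crest. AFSCs had 82.6, 60.2 and 53.2 and EpiLCs 35.04, 29.6 and 20.5. ESC-ASCs had 15.9, 18.99 and 23.9, ASCs 10.7, 19.9 and 15.6, ESCs 18.3, 7.92 and 7.60 and EpiSCs 5.70, 6.55 and 6.51. AFSC samples were above all others, and EpiSC samples were below all others, so that this repressor had the opposite order of *Snai1* and *Zeb2* in the primed cells. AFSCs were 2.29-fold above EpiLCs (log2 fold change 1.19, standard error 0.27, adjusted p = 0.001), and no other neighbouring step passed.

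*Vim* (ENSMUSG00000026728, chromosome 2, 13573927 to 13582826, plus strand) encodes vimentin, the intermediate filament of mesenchymal cells. AFSCs had 1691, 1180.5 and 1149, EpiSCs 884, 764 and 856 and ESCs 812, 734 and 709.6. ASCs had 188, 272 and 289, ESC-ASCs 238, 214 and 257 and EpiLCs 116, 106 and 116. The 3 higher groups did not overlap with the 3 lower ones. ESCs were 3.05-fold above ASCs (log2 fold change of ASCs against ESCs -1.61, standard error 0.17, adjusted p = 3.01e-07), and EpiLCs were below ESC-ASCs (log2 fold change -1.05, adjusted p = 2.11e-05). No difference passed between both cultures in ABCL (log2 fold change -0.07, adjusted p = 0.75, approximate 95% interval -0.39 to 0.25). Without the 4 first-replicate libraries the ASCs were above the ESC-ASCs by the test. Of 8 genes of fibroblasts and feeder cells the summed level was 25.1 to 46.00 in AFSCs, 10.7 to 13.8 in EpiSCs, 37.2 to 93.96 in ESCs, 61.7 to 101 in ASCs, 69.1 to 86.6 in EpiLCs and 9.52 to 12.1 in ESC-ASCs. *Fap* was at 0 in all samples, and the group means of the summed list did not follow the order of *Vim*. The sum was mostly *Dcn* in EpiLCs (64.6 ± 13.5) and *Col1a1* in ASCs (56.4 ± 16.6). *Col1a2* was highest in AFSCs (7.64 ± 1.82) and ESCs (6.68 ± 1.52), and *Col3a1* in ESCs (11.2 ± 6.05). The part of such cells in the *Vim* levels was not tested.

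*Fn1* (ENSMUSG00000026193, chromosome 1, 71585520 to 71653200, minus strand) encodes fibronectin, the matrix protein that integrins bind. Its levels were 1464, 854 and 868 in ASCs, 976, 1321 and 815 in ESC-ASCs and 786, 642 and 660.4 in ESCs. They were 87.9, 38.7 and 74.6 in AFSCs, 55.2, 77.3 and 68.3 in EpiLCs and 20.03, 22.4 and 20.9 in EpiSCs. The ASC, ESC-ASC and ESC samples lay above all others without overlap, and EpiSCs lay below every other sample. ESCs were 10.3-fold above AFSCs (log2 fold change of AFSCs against ESCs -3.37, adjusted p = 4.94e-09). EpiSCs were 3.20-fold below EpiLCs (log2 fold change -1.68, standard error 0.27, adjusted p = 4.50e-05). Neither ASCs (log2 fold change 0.59, standard error 0.26, adjusted p = 0.064) nor ESC-ASCs (log2 fold change 0.57, standard error 0.26, adjusted p = 0.064) passed against ESCs, although every ASC and ESC-ASC sample was above every ESC sample. Of the 45 neighbouring steps tested over the 9 genes, 20 passed and 25 did not.

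Over the other pairs of groups, which share samples with those compared in detail further on, EpiSCs had calls in 5 of the 9 genes against ESCs (61.2% of all genes called), in 7 against ASCs (66.5%) and in 8 against ESC-ASCs (72.2%). In each of them *Cdh2*, *Zeb2* and *Snai1* were higher and *Fn1* and *Cdh1* lower in EpiSCs. Against ASCs *Vim* was also higher (log2 fold change 1.75, adjusted p = 3.03e-08) and *Twist1* lower (log2 fold change -1.27, adjusted p = 0.005). AFSCs had calls in 7 genes against ESC-ASCs (69.0%) and in 6 against EpiLCs (47.1%), and against EpiLCs all 6 were higher, *Vim* by 11.9-fold (log2 fold change 3.57, standard error 0.18, adjusted p = 1.54e-11), *Zeb1*, *Zeb2*, *Snai1*, *Twist1* and *Cdh2*. EpiLCs had calls in 7 genes against ASCs (59.8%) and in 6 against ESC-ASCs (64.1%). *Fn1*, *Vim*, *Snai1* and *Zeb1* were lower and *Epcam* was higher in EpiLCs in both. In addition, EpiLCs had less *Cdh2* and more *Twist1* than ASCs, and more *Cdh1* than ESC-ASCs.

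**Figure D3:**
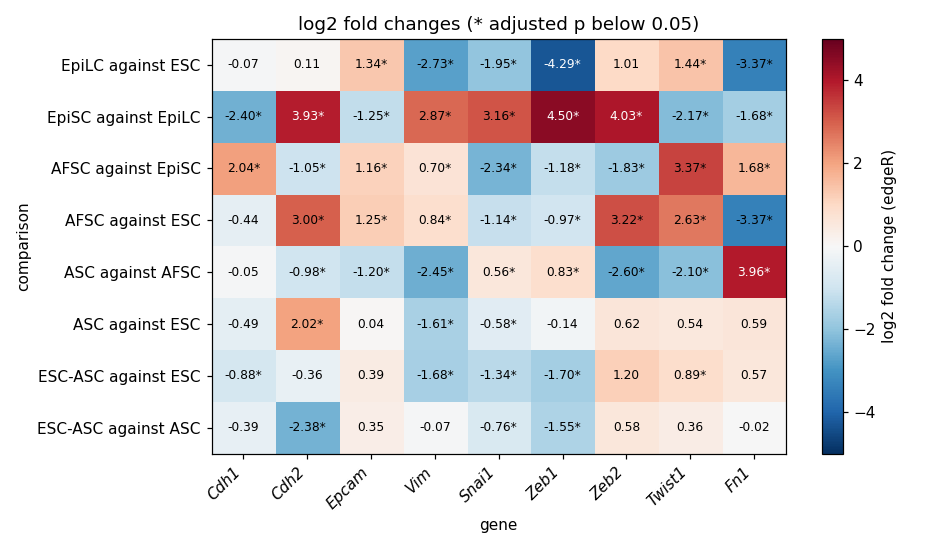
log2 fold changes (edgeR) of the 9 tested genes in 8 comparisons, red for higher and blue for lower in the group named first, with an asterisk at an adjusted p below 0.05. EpiSCs against EpiLCs carry an asterisk for all 9 genes, and ASCs against ESCs for 3.

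From ESCs to EpiLCs, the first step out of the naive state, the mesenchymal products *Vim* and *Fn1* and the repressors *Zeb1* and *Snai1* fell, while *Epcam*, the repressor *Twist1* and 9 of 16 tight junction and polarity genes rose. *Zeb1* fell 19.5-fold (log2 fold change -4.29, standard error 0.32, adjusted p = 1.22e-09), *Fn1* 10.3-fold (log2 fold change -3.37, standard error 0.28, adjusted p = 6.76e-09), *Vim* 6.63-fold and *Snai1* 3.88-fold. *Epcam* (log2 fold change 1.34, standard error 0.18, adjusted p = 3.80e-06) and *Twist1* (log2 fold change 1.44, standard error 0.33, adjusted p = 0.001) rose. *Cdh1* had a log2 fold change of -0.07 with an approximate 95% interval of -0.51 to 0.37, and *Cdh2* one of 0.11. *Zeb2* did not pass (log2 fold change 1.01, adjusted p = 0.14). In all, 6 of the 9 tested genes were called, 2 higher and 4 lower, where 55.3% of all genes tested were called. Of 15 epithelial regulators and splicing factors, 9 were higher and 5 lower (median log2 fold change 1.14, 0.06 over all genes). *Esrp1*, a splicing regulator of epithelial isoforms, went from 0.686 ± 0.35 to 114 ± 23.7 (mean ± SD, n = 3; log2 fold change 7.32, standard error 0.26, adjusted p = 6.51e-14), while the epithelial transcription factor *Elf3* went from 887 ± 20.5 to 40.4 ± 6.23 (log2 fold change -4.44, standard error 0.18, adjusted p = 4.25e-13). Of 16 tight junction and polarity genes, 9 were higher and 2 lower (median 0.89), led by the claudin *Cldn7* (log2 fold change 4.37). The 17 mesenchymal and cytoskeletal genes were split, 8 higher and 6 lower.

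EpiSCs against EpiLCs had the widest set of changes, as all 9 tested genes were called and all were beyond 2-fold, against 48.6% of genes called and 28.6% called beyond 2-fold. *Cdh1* fell 5.29-fold (log2 fold change -2.40, standard error 0.24, adjusted p = 9.45e-08) and *Epcam* 2.38-fold (log2 fold change -1.25, standard error 0.18, adjusted p = 1.03e-05). *Cdh2* rose 15.3-fold (log2 fold change 3.93, standard error 0.30, adjusted p = 2.10e-09), *Zeb1* 22.6-fold, *Zeb2* 16.3-fold, *Snai1* 8.92-fold and *Vim* 7.31-fold. Against this, *Twist1* (log2 fold change -2.17, standard error 0.34, adjusted p = 3.17e-05) and *Fn1* fell. Among the epithelial lists, 12 of 15 epithelial regulators fell and none rose (median -1.67, -0.07 over all genes), and 13 of 16 tight junction and polarity genes fell and 1 rose (median -1.56). The junction lists were divided, with 4 of 9 adherens junction partners higher and 2 lower (median 0.04), and 2 of 6 desmosome genes higher and 2 lower. *Cldn4*, a claudin, fell from 242 ± 25.5 to 2.41 ± 0.23 (log2 fold change -6.61, standard error 0.27, adjusted p = 6.62e-13), and *Rab25*, a small GTPase of epithelial trafficking, from 114 ± 0.962 to 2.81 ± 0.555 (log2 fold change -5.30, standard error 0.25, adjusted p = 3.97e-12). Among other cadherins, *Cdh11*, a type II cadherin of mesenchyme, rose from 1.34 ± 0.0854 to 52.4 ± 4.28 (log2 fold change 5.25, standard error 0.33, adjusted p = 7.22e-10). Among other transcription factors, *Gsc*, an organizer gene, rose from 4.12 ± 1.61 to 846 ± 133 (log2 fold change 7.66, standard error 0.29, adjusted p = 1.81e-13). Of the mesenchymal genes, 9 of 17 rose and 3 fell. The summed level of 6 nascent mesoderm markers was 60.8 to 77.03 in EpiSCs and 3.83 to 11.4 in EpiLCs, in EpiSCs mostly *Mixl1*, with *Msgn1* at 0 in both, and that of 8 extra-embryonic endoderm markers 65.1 to 66.1 and 14.05 to 14.7, in EpiSCs mostly *Sox17* and *Gata6*, with *Ttr* at 0 in both. Of the mesoderm list, *Hand1* had a lower mean in EpiSCs than in EpiLCs (0.367 ± 0.336 against 1.57 ± 1.55), and *Mesp1*, *Tbx6* and *Kdr* higher ones. Of the endoderm list, *Gata4*, *Sox7*, *Dab2*, *Afp* and *Cubn* had lower means in EpiSCs than in EpiLCs, with *Dab2* at 2.27 ± 0.0579 against 8.09 ± 0.851. The part of both lists in the cadherin and repressor levels was not tested. The fibroblast and feeder list, with *Fap* at 0 in both, was lower in EpiSCs than in EpiLCs, as given beside *Vim*, and its part was not tested either.

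AFSCs and EpiSCs are both called primed, and they differed in all 9 tested genes, where 39.4% of genes were called. AFSCs had more of the epithelial genes, *Cdh1* by 4.10-fold (log2 fold change 2.04, standard error 0.24, adjusted p = 1.29e-06) and *Epcam* by 2.24-fold (log2 fold change 1.16, standard error 0.18, adjusted p = 3.77e-05), and less *Cdh2*, *Zeb2*, *Zeb1* and *Snai1* (log2 fold change -2.34, standard error 0.21, adjusted p = 4.92e-08 for *Snai1*). They also had more of *Twist1*, by 10.3-fold (log2 fold change 3.37, standard error 0.33, adjusted p = 1.31e-07), of *Fn1* (log2 fold change 1.68, adjusted p = 7.14e-05) and of *Vim* (log2 fold change 0.70, adjusted p = 0.002). The difference was therefore not a shift of all mesenchymal genes to one side. Of 16 tight junction and polarity genes 14 were higher in AFSCs and none was lower (median 1.61, 0.02 over all genes), and of 15 epithelial regulators 9 were higher and none was lower (median 1.14). Of the mesenchymal and cytoskeletal genes 10 of 17 were higher and 2 lower, led among those of ample level by *Tagln*, a smooth muscle actin-binding protein, at 1389 ± 381 against 65.5 ± 3.08 (log2 fold change 4.42, standard error 0.23, adjusted p = 3.60e-11). The plakoglobin gene *Jup*, which links cadherins to the cytoskeleton, was at 165 ± 25.7 against 23.9 ± 4.71 (log2 fold change 2.79, standard error 0.22, adjusted p = 6.39e-09). The repressor *Snai3* was at 87.8 ± 13.9 against 11.5 ± 3.33 (log2 fold change 2.96, standard error 0.26, adjusted p = 3.86e-08), the opposite of *Snai1*. The nascent mesoderm markers summed to 12.1 to 22.3 in AFSCs and 60.8 to 77.03 in EpiSCs, and their part in these differences was not tested. Both sums were mostly *Mixl1* (12.8 ± 4.71 against 63.1 ± 6.64). *Hand1* (1.57 ± 0.668 against 0.367 ± 0.336) and *Msgn1* (0.793 ± 1.37 against 0) had higher means in AFSCs, and *Mesp1*, *Tbx6* and *Kdr* lower ones.

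**Figure D4:**
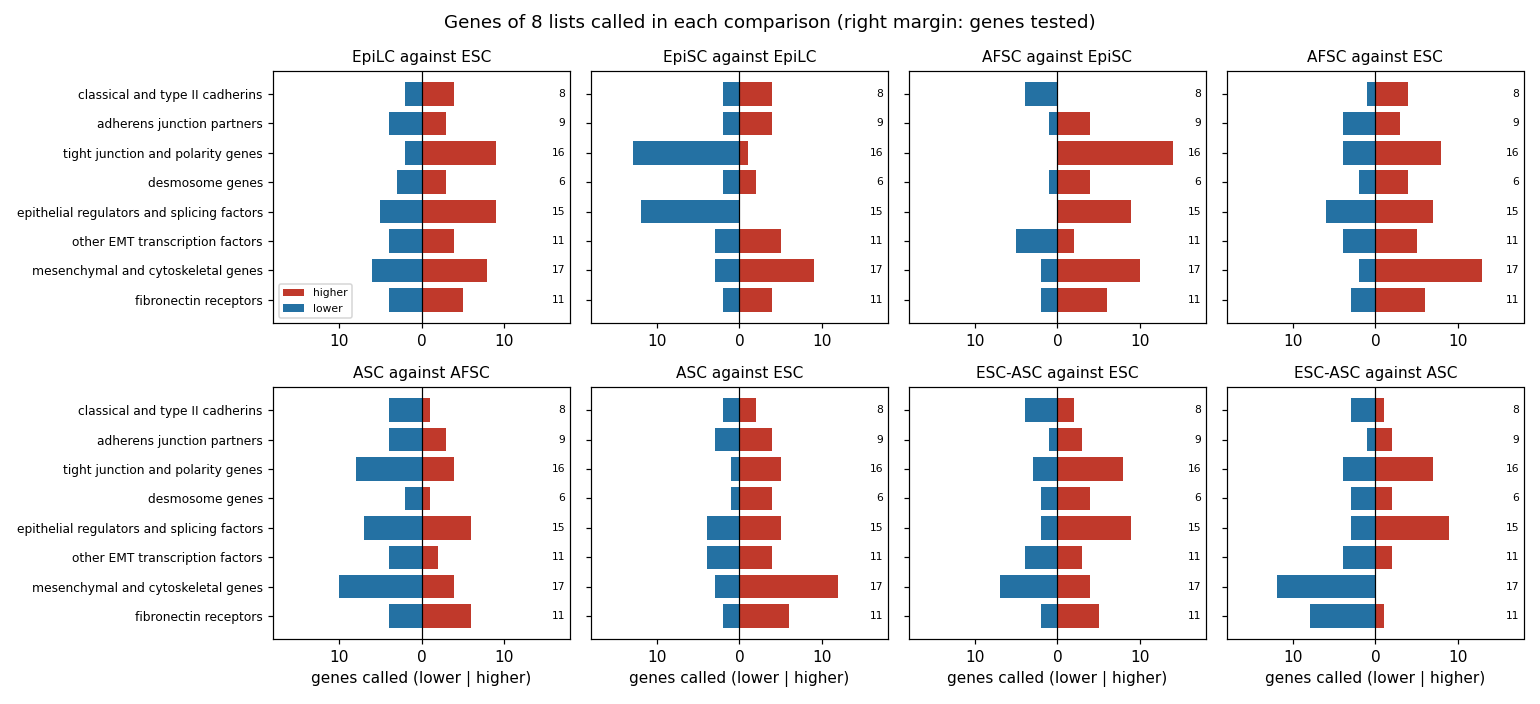
Number of genes of 8 lists called higher (red, right) or lower (blue, left) in the group named first, in 8 comparisons, with the number of genes tested in the right margin. In AFSCs against EpiSCs 14 of 16 tight junction and polarity genes are higher and none lower, and in ESC-ASCs against ASCs 12 of 17 mesenchymal and cytoskeletal genes are lower and none higher.

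Against ESCs, the AFSCs had more *Epcam*, *Cdh2* and *Vim*, and the repressors and mesenchymal products were divided. *Epcam* (log2 fold change 1.25, standard error 0.18, adjusted p = 6.83e-06), *Cdh2* (log2 fold change 3.0, standard error 0.31, adjusted p = 9.62e-08), *Zeb2* (log2 fold change 3.22, standard error 0.47, adjusted p = 7.26e-06), *Twist1* (log2 fold change 2.63, standard error 0.32, adjusted p = 7.10e-07) and *Vim* (log2 fold change 0.84, adjusted p = 1.88e-04) were higher. *Fn1*, *Snai1* (log2 fold change -1.14, adjusted p = 1.81e-04) and *Zeb1* (log2 fold change -0.97, adjusted p = 0.001) were lower. The count was 8 of 9, where 60.5% of genes were called, and all 9 were called without the 4 first-replicate libraries, where 67.1% were. *Cdh1* was the exception (log2 fold change -0.44, adjusted p = 0.10), and it passed as lower in AFSCs without AFSC replicate 1 (adjusted p = 0.036). Of 17 mesenchymal and cytoskeletal genes 13 were higher and 2 lower (median 2.65, -0.03 over all genes), with *Tagln* at 1389 ± 381 against 10.6 ± 4.95 (log2 fold change 7.12, standard error 0.29, adjusted p = 2.06e-13). Of 15 epithelial regulators 7 were higher and 6 lower (median 0.15). Nascent mesoderm markers summed to 12.1 to 22.3 in AFSCs, mostly *Mixl1*, and 5.16 to 7.51 in ESCs, and their part in these differences was not tested. Of these markers *Kdr* had a lower mean in AFSCs (0.602 ± 0.301 against 1.80 ± 0.711), *Mesp1* was at 0 in both, and the others had higher means. Of 11 fibronectin receptor genes 6 were higher and 3 lower, while *Fn1* itself fell. The integrin subunit *Itga3* was at 446 ± 147 against 30.5 ± 3.86 (log2 fold change 3.88, standard error 0.24, adjusted p = 7.82e-11), *Itga5*, the alpha chain of the main fibronectin receptor, at 84.8 ± 28.3 against 24.1 ± 6.90 (log2 fold change 1.85), and the syndecan *Sdc4* at 161 ± 47.2 against 328 ± 42.9 (log2 fold change -1.03).

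ASCs were derived from AFSCs by culture in ABCL and outgrowth of colonies. The study began with more than 1 AFSC line, and the titles of the samples name no line. A difference of line between these groups therefore cannot be told apart from the change of medium and the outgrowth. *Fn1* rose 15.6-fold (log2 fold change 3.96, standard error 0.29, adjusted p = 1.06e-09), *Zeb1* rose 1.77-fold and *Snai1* rose narrowly. *Zeb2* (log2 fold change -2.60, standard error 0.41, adjusted p = 2.12e-05), *Vim* (log2 fold change -2.45, standard error 0.17, adjusted p = 5.20e-10), *Twist1* (log2 fold change -2.10, standard error 0.29, adjusted p = 4.41e-06), *Epcam* (log2 fold change -1.20, standard error 0.18, adjusted p = 1.09e-05) and *Cdh2* fell. In all 8 of 9 were called, 3 higher and 5 lower, where 64.0% of genes were called. *Cdh1* was at 694 ± 227 in ASCs and 707 ± 201 in AFSCs (mean ± SD, n = 3; log2 fold change -0.05, adjusted p = 0.86, approximate 95% interval -0.49 to 0.39). Of 17 mesenchymal and cytoskeletal genes 10 fell and 4 rose (median -1.01, 0.02 over all genes). *Tagln* fell to 81.7 ± 14.9 (log2 fold change -4.11), and *Ccn2*, a secreted matrix-associated protein, rose from 19.2 ± 2.49 to 671 ± 165 (log2 fold change 5.09, standard error 0.23, adjusted p = 1.65e-12). The epithelial regulators were divided, 6 higher and 7 lower of 15, with *Elf3* from 28.5 ± 2.44 to 402 ± 103 (log2 fold change 3.80) and *Rab25* from 158 ± 24.9 to 15.4 ± 2.59 (log2 fold change -3.38).

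ASCs against ESCs, which share a naive marker pattern, had the fewest calls together with ESC-ASCs against ASCs. Of 9 genes 3 were called, where 50.3% of genes were called. *Cdh2* was higher, and *Vim* and, narrowly, *Snai1* were lower in ASCs. Without the 4 first-replicate libraries 6 were called, where 52.9% of genes were, so that the share among the 9 lay below that of all genes with these libraries and above it without them. *Epcam* (log2 fold change 0.04, adjusted p = 0.86), *Zeb1* (log2 fold change -0.14, adjusted p = 0.61) and *Twist1* (log2 fold change 0.54, adjusted p = 0.22) did not pass. *Epcam* and *Twist1* passed as higher in ASCs without those libraries, and *Twist1* also without ESC replicate 1 (adjusted p = 0.045). *Cdh1* did not pass with all samples (log2 fold change -0.49, adjusted p = 0.081). It passed as lower in ASCs without those libraries, without ASC replicate 1 and with a replicate block. *Fn1*, which did not pass, passed as higher in ASCs with DESeq2, with scaling by total counts only, and without ASC replicate 2 or 3, AFSC replicate 1 or 2, EpiLC replicate 1 or ESC-ASC replicate 2 (adjusted p from 0.029 to 0.37 over all samples left out in turn). *Zeb2* had 4 to 13 raw counts in ASCs and 0 to 7 in ESCs, and did not pass (log2 fold change 0.62, adjusted p = 0.41). Although *Vim* was lower in ASCs, 12 of 17 mesenchymal and cytoskeletal genes were higher and 3 lower (median 1.70, 0.02 over all genes), with *Tagln* at 81.7 ± 14.9 against 10.6 ± 4.95 (log2 fold change 3.01, standard error 0.31, adjusted p = 2.35e-07). The nascent mesoderm markers summed to 40.4 to 53.6 in ASCs and 5.16 to 7.51 in ESCs. In ASCs the sum was mostly *Hand1*, a mesodermal transcription factor (38.9 ± 7.76 against 0.329 ± 0.57), with *Msgn1* at 0 in both. *Mixl1* (1.39 ± 0.76 against 2.24 ± 0.708) and *Kdr* (1.46 ± 0.351 against 1.80 ± 0.711) had lower means in ASCs, and *Mesp1* and *Tbx6* higher ones. The part of these markers in the mesenchymal list was not tested. Of the fibronectin receptors 6 of 11 were higher and 2 lower, *Itga5* at 135 ± 29.7 against 24.1 ± 6.90 (log2 fold change 2.50, standard error 0.25, adjusted p = 1.58e-07). The placental cadherin *Cdh3* was at 46.4 ± 11.6 against 143 ± 23.6 (log2 fold change -1.64, standard error 0.22, adjusted p = 8.09e-06).

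When ESCs were moved into ABCL, the resulting ESC-ASCs had less *Zeb1* (log2 fold change -1.70, standard error 0.23, adjusted p = 3.73e-06), *Vim* (log2 fold change -1.68, standard error 0.17, adjusted p = 7.45e-08), *Snai1* (log2 fold change -1.34, standard error 0.21, adjusted p = 1.81e-05) and *Cdh1*. *Twist1* was higher (log2 fold change 0.89, standard error 0.33, adjusted p = 0.025), a call that was lost without ESC replicate 2 or 3 or ESC-ASC replicate 3 (adjusted p up to 0.14). These are 5 of 9, where 60.1% of genes were called, and 7 were called without the 4 first-replicate libraries, where 69.0% were. A difference of line between these groups cannot be told apart from the change of medium. *Epcam* (log2 fold change 0.39, adjusted p = 0.064) and *Zeb2* (log2 fold change 1.20, adjusted p = 0.054) missed the threshold, as did *Fn1*. *Epcam* passed without ESC replicate 1 or EpiLC replicate 1. *Zeb2* passed without ASC replicate 1 or 2, AFSC replicate 2, EpiLC replicate 1, ESC replicate 3 or ESC-ASC replicate 2. *Fn1* passed without ASC replicate 1, AFSC replicate 1 or 2, or ESC-ASC replicate 3. Of 15 epithelial regulators 9 were higher and 2 lower (median 0.52, 0.03 over all genes), and *Esrp1* went from 0.686 ± 0.35 to 69.5 ± 2.17 (log2 fold change 6.59, standard error 0.27, adjusted p = 8.52e-13). Of the 17 mesenchymal and cytoskeletal genes 4 were higher and 7 lower. The repressor *Snai3* went from 0.924 ± 1.04 to 88.8 ± 6.11 (log2 fold change 6.26, standard error 0.39, adjusted p = 2.08e-10).

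ASCs and ESC-ASCs shared the medium and differed in origin, possibly in line, and in sequencing depth, which cannot be told apart here. With ESC-ASC counts thinned to 7785262, each of the 9 tested genes kept its side of the threshold in this comparison. ESC-ASCs had 5.19-fold less *Cdh2* (log2 fold change -2.38, standard error 0.29, adjusted p = 2.09e-06), 2.93-fold less *Zeb1* (log2 fold change -1.55, standard error 0.23, adjusted p = 1.80e-05) and 1.69-fold less *Snai1* (log2 fold change -0.76, standard error 0.21, adjusted p = 0.005). The other 6 tested genes did not pass, so that 3 of 9 were called, where 50.7% of genes were called. Without the 4 first-replicate libraries 6 were called, where 59.9% of genes were, with *Vim* lower and *Epcam* and *Zeb2* higher in ESC-ASCs. *Cdh1* (log2 fold change -0.39, adjusted p = 0.15) and *Fn1* (log2 fold change -0.02, adjusted p = 0.95, approximate 95% interval -0.52 to 0.48) did not pass. *Epcam* passed without ESC replicate 1. Of 17 mesenchymal and cytoskeletal genes 12 were lower and none was higher in ESC-ASCs (median -1.50, -0.05 over all genes). *Tagln* was at 3.14 ± 1.14 against 81.7 ± 14.9 (log2 fold change -4.66, standard error 0.30, adjusted p = 1.07e-09) and *Ccn1*, another matrix-associated protein, at 55.6 ± 16.3 against 1068 ± 259 (log2 fold change -4.25, standard error 0.25, adjusted p = 2.63e-10). Of 11 fibronectin receptor genes 8 were lower and 1 was higher (median -0.83), and of 15 epithelial regulators 9 were higher and 3 lower. The fibroblast and feeder markers were at 61.7 to 101 in ASCs and 9.52 to 12.1 in ESC-ASCs, mostly *Col1a1* and *Pdgfrb* in ASCs, with *Fap* at 0 in both. The nascent mesoderm markers summed to 40.4 to 53.6 in ASCs, mostly *Hand1*, and to 7.11 to 7.25 in ESC-ASCs, where *Hand1* was at 0.751 ± 0.443 and *Msgn1* at 0. *Mesp1* had a higher mean in ESC-ASCs (2.34 ± 0.664 against 0.86 ± 1.49), and *Mixl1*, *Tbx6* and *Kdr* lower ones. The part of both lists in these differences was not tested.

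**Figure D5:**
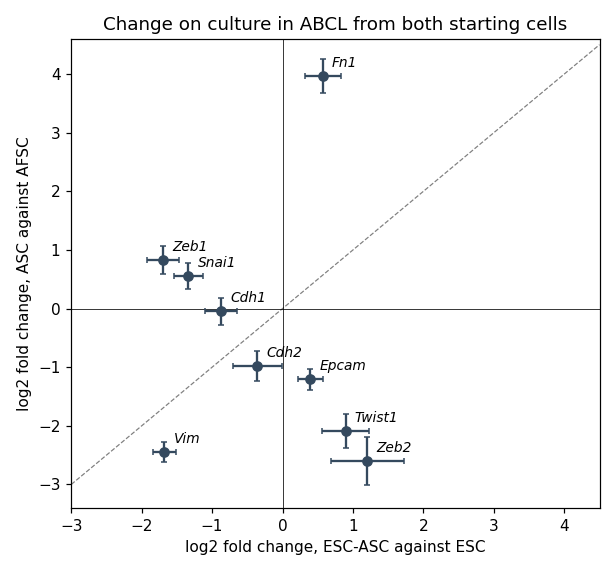
log2 fold change (edgeR) of the 9 tested genes from ESCs to ESC-ASCs on the horizontal axis and from AFSCs to ASCs on the vertical axis, with bars of 1 standard error; the dashed line marks equal change. *Fn1* lies farthest above the line, at 0.57 and 3.96, and *Zeb2* farthest below it, at 1.20 and -2.60.

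The log2 fold changes from AFSCs to ASCs and from ESCs to ESC-ASCs differed in size or direction for most of these genes. The difference between both changes was itself tested and was called in 8 of the 9 genes, where 58.5% of genes were called. By construction it holds the difference of AFSCs from ESCs, called in 8 of 9 (60.5% of all genes). It also holds the difference of ESC-ASCs from ASCs, called in 3 of 9 (50.7%). It therefore cannot separate an action of ABCL that depends on origin from starting level, line or depth. *Vim* fell from both origins, by -2.45 and -1.68 on the log2 scale, and fell further from AFSCs. *Zeb1* and *Snai1* rose from AFSCs and fell from ESCs, and *Twist1* fell from AFSCs and rose from ESCs. *Fn1*, *Zeb2* and *Epcam* changed from AFSCs, with no change that passed from ESCs. *Cdh1* fell from ESCs and had a log2 fold change of -0.05 from AFSCs, and this difference was close to the threshold (adjusted p = 0.033). *Cdh2* was the gene whose changes, -0.98 and -0.36, did not differ enough to pass (adjusted p = 0.23).

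Over the 108 genes of the 8 lists, 93 were tested, and 66.7% to 81.7% of them were called in the 8 comparisons above. Of all genes tested, 39.4% to 64.0% were called in the same comparisons. These lists were chosen with results of these data known, and their counts are descriptions.

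The genes with the most similar profiles were sought among 10062 genes with at least 50 normalized reads per kb in a group, by Pearson's r of log2 levels over the 18 samples. The samples fall into 6 groups of replicates, so r reflects mostly the 6 group means. For *Cdh1* they were *Zfp808* (r = 0.961), *Gdf3* (r = 0.931), a TGF-beta family ligand, and *Nqo1* (r = 0.925), a quinone reductase. All 3 were low in EpiSCs, with *Nqo1* at a mean of 1.16 there and 380.0 in ESCs. For *Cdh2* they were the amino acid transporter *Slc7a6* (r = 0.950), *Amot* (r = 0.949), a junction-associated protein, and *Zfp362* (r = 0.949), which had means of 169.6 in EpiSCs and 10.6 in ESCs. For *Vim* they were *S100a11* (r = 0.965), a calcium-binding protein, the kinase *Plk2* (r = 0.936) and *Clic1* (r = 0.926). *S100a11* went from 139 in EpiLCs to 2172 in AFSCs. For *Fn1* they were *Slc17a9* (r = 0.979), the matrix protease *Mmp11* (r = 0.979) and *Apol7d* (r = 0.979). *Apol7d* lies on the opposite strand and shares 292 exonic bases with *Fn1*, so its counts, 3.28% of those of *Fn1*, cannot be told apart from *Fn1* fragments.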

How the data were processed

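RNA-seq libraries of polyA RNA were made with a directional kit from bulk cells. The authors mapped paired reads to GRCm38 with TopHat2 and counted fragments per gene on Ensembl release 86 with featureCounts 1.5.0-p1, without regard to strand and with multi-mapping and overlapping fragments counted for each gene (-M and -O in the file headers), and deposited raw counts for each of the 18 samples. These counts were used as deposited. Groups were taken from the labels of the samples. Names of the deposited tables call the AFSC samples ASC, and groups followed the labels. Identifiers were matched to symbols in GENCODE vM21 for 35514 of 35773 genes, and coordinates are GRCm38.

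Tests used edgeR 4.0.16 (R 4.3.3, limma 3.58.1) on genes with 10 or more counts in 3 or more samples: TMM normalization, all 18 samples in 1 fit of the 6 groups without a replicate term, a robust quasi-likelihood fit and an F test per contrast, with Benjamini-Hochberg adjustment. The standard error is the log2 fold change divided by the square root of F, and an approximate 95% interval is 1.96 standard errors on either side. Levels were scaled by DESeq2 1.42.0 size factors, and a pseudocount of 0.1 was added only for the search for similar profiles. Depth sets counting error, so genes with a few counts are given with their counts. Scripts were tested on simulated data. Tables and figures used Python 3.11.15, pandas 2.3.3, numpy 2.4.6 and matplotlib 3.10.9.

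Named list genes are those with up to 2 of the largest changes in each direction per list among called genes with a group mean of at least 50 per kb, and not all are printed. The 10 genes and the lists were chosen with earlier results of these data known. Other settings were a DESeq2 Wald test, other scalings, no filter, a replicate block, only the groups compared, ESC-ASC counts thinned to 7785262, each sample left out, and, chosen after seeing the data, the 4 first-replicate libraries left out.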

Additional observations from a re-analysis of the deposited data

Results flagged for a closer look

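The difference between the change in ABCL from AFSCs (ASCs against AFSCs) and the change in ABCL from ESCs (ESC-ASCs against ESCs) was called by edgeR in 8 of the 9 tested genes, where 58.5% of genes were called. The differences, from AFSCs minus from ESCs on the log2 scale, were 3.39 for *Fn1*, 2.52 for *Zeb1*, 1.90 for *Snai1* and 0.83 for *Cdh1*. They were -3.80 for *Zeb2*, -2.99 for *Twist1*, -1.60 for *Epcam* and -0.77 for *Vim*. The adjusted p for *Cdh1* was 0.033, and the call was lost without ASC replicate 1, AFSC replicate 2, ESC replicate 1, or ESC-ASC replicate 1 or 3. The *Cdh1* call was also lost with only the groups compared and without the 4 first-replicate libraries. Without these libraries *Cdh2* was called. Origin, starting level, medium before the change, a possible difference of line and the depth of the ESC-ASC libraries cannot be told apart in this contrast.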

How the results depend on the processing

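Over all settings, 2037 of the log2 fold changes of single genes kept their side of the threshold, 45 became called and 22 lost the call. None of the called ones turned its direction, while some that were not called changed sign, such as *Cdh1* in EpiLCs against ESCs (-0.19 to 0.15 with each sample left out). The 60 group levels moved by less than the spread between replicates. With ESC-ASC counts thinned to 7785262, none of the 9 tested genes crossed the threshold in the 8 comparisons. The same held in the difference between both changes in ABCL. The number of the 10 genes called rose from 3 to 6 in ASCs against ESCs and from 3 to 6 in ESC-ASCs against ASCs without the 4 first-replicate libraries. In ESC-ASCs against ESCs it rose from 5, where 60.1% of all genes were called, to 8 with scaling by total counts only, where 58.6% were. It rose to 9 without the filter on low counts, where *Snai2* was 1 of the 9 and 40.2% of 26105 genes were called. It was 7 without the 4 first-replicate libraries, with the share given above, and 6 with DESeq2, where 60.2% of genes were called. With each sample left out, the count ranged from 6 to 6 in EpiLCs against ESCs, 9 to 9 in EpiSCs against EpiLCs and in AFSCs against EpiSCs, 8 to 9 in AFSCs against ESCs, 7 to 8 in ASCs against AFSCs, 2 to 4 in ASCs against ESCs, 4 to 7 in ESC-ASCs against ESCs, 3 to 4 in ESC-ASCs against ASCs, and 7 to 8 in the difference between both changes in ABCL. Neighbouring steps that passed ranged from 18 to 22, against 20, and list genes called from 588 to 612, against 608. Under the other settings these counts ranged from 19 to 26 and from 550 to 623, and without the 4 first-replicate libraries they were 26 and 623. Scaling by total counts only moved the median of all genes from 0.02 to 0.22 in ASCs against ESCs, with 5372 genes higher and 2515 lower in place of 4463 and 4040, and from -0.05 to -0.19 in ESC-ASCs against ASCs, with 2772 higher and 5437 lower in place of 3892 and 4675. Named list genes kept their direction in all settings, and 19 of 227 calls of such a gene in a comparison were lost in at least 1 setting. Whether replicate numbers pair the samples was not settled. The correlation of deviations from group means averaged 0.0924 over 45 pairs with equal numbers (-0.239 to 0.511). It averaged -0.0435 over 90 pairs with different numbers (-0.431 to 0.365), and 8 of 18 samples correlated best with their own number. The fit with a replicate block called 4 in ASCs against ESCs (53.0% of all genes) and 6 in ESC-ASCs against ESCs (62.6%). Fold changes of *Zeb2*, *Zeb1* in EpiLCs and *Cdh2* in naive cells rest on few counts and are limited by depth.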
